A study of Mus musculus with 12 samples.

Results

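The genes that make cholesterol and fatty acids were followed in scraped mouse colon epithelium, in 30 genes named by their known place in the 2 routes. The list was drawn up with earlier results of these data known, so shares of members are not those of a set chosen blind. The rule for the 30 members was their place in the routes. They form 30 of the 24391 gene symbols measured. Their roles split them into 7 genes of the mevalonate segment, 11 enzymes from squalene to cholesterol, 6 genes of sterol sensing and transfer, and 6 genes of fatty acid synthesis. Messenger RNA was sequenced from 12 libraries of C57BL/6 mice, all 18 weeks old, in 3 groups of 4. These were a control group, a group given AOM and DSS (AOM/DSS), and a group given AOM, DSS and curcumin, called curcumin here. AOM, azoxymethane, is a colon carcinogen, DSS, dextran sulfate sodium, inflames the colon, and curcumin is a polyphenol of turmeric. Curcumin was thus measured only in mice that also had AOM and DSS. Doses, routes and times of the agents are not given in the sources used here. Before the mucosa was scraped off with a glass slide, the proximal part of the colon and right-sided tumours were taken away, per the labels' protocols. Nothing in the labels ties each library to its own mouse, so a p-value here measures the spread between samples, which may be technical.

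Cholesterol is built from acetyl-CoA through mevalonate and isoprenoid diphosphates to squalene, which is closed into lanosterol and trimmed to cholesterol. The transcription factors SREBP-2 and SREBP-1, encoded by Srebf2 and Srebf1, drive the sterol and the fatty acid genes respectively, with overlap. They are held in the endoplasmic reticulum by Scap and the Insig proteins when sterol is plentiful and are cut free when it is scarce. The intestinal epithelium renews all the time and is a known site of cholesterol synthesis.

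Levels are FPKM, reads per gene scaled to gene length and to a size factor for each library. The size factors equalled those from the median of gene ratios between libraries, and were not in proportion to total reads. Differences are between means of log2(FPKM + 1), a scale that shrinks the change of genes at low level, and were tested with limma over 12052 genes with Benjamini-Hochberg adjustment. A gene was called at an adjusted p below 0.05. Libraries held between 5567988 and 15968416 reads assigned to genes, with the fewest in control replicate 1. The libraries also differed in how GC-rich genes stood against AT-rich genes. In 5 libraries GC-rich genes were higher than in the mean of all libraries (control replicate 0, AOM/DSS replicates 0 and 1, curcumin replicates 0 and 1), and in the other 7 they were lower. All 11 colon epithelium markers passed the filter on low values, and their summed level was 7502 to 12000 FPKM in control, 7798 to 9270 in AOM/DSS and 8084 to 12560 in curcumin libraries. One of the 11 was called: Slc26a3, the chloride exchanger of mature colonocytes, at 624.1 ± 111.3 FPKM in control, 216.7 ± 72.8 in AOM/DSS and 582.4 ± 57.0 in curcumin, fell in AOM/DSS against control and rose with curcumin against AOM/DSS (adjusted p = 0.00433 and 0.00792). Muc2, the goblet cell mucin, was at 217.4 ± 22.2, 424.5 ± 153.9 and 441.0 ± 89.3 FPKM and was not called. In bulk RNA, fewer cells of a type and less RNA per cell cannot be told apart.

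Of the 30 members, 29 passed the filter, which asked for at least 1 FPKM in at least 4 libraries. The exception was Hmgcs1, the synthase that makes the precursor of mevalonate, which was listed at 0 in all 12 libraries. The sources used here do not say why, and nothing is read from it. By mean level over the 12 libraries, Scd2, a desaturase that places a double bond in saturated fatty acids, stood highest at 159 FPKM. It was followed by the sterol oxidase Msmo1 at 133, the farnesyl diphosphate synthase Fdps at 101 and the ATP citrate lyase Acly at 96.4 FPKM. The lowest were Lss at 10.1, Acaca at 8.67, Hsd17b7 at 8.17 and Scd1, the second desaturase, at 7.98 FPKM. Scd2 stood above 95.5% of tested genes and Scd1 above 41.6%. Read sharing with near copies limits some members: 45.9% of 50-base stretches of Acat2 also occur in Acat3, 52.6% of those of Acaca in Gm5182, and 30.5% of those of Idi1 in other genes. Fdft1 shares 18.3% of its exon bases with Ctsb on the opposite strand. Whether the counting used strand is not given in the sources used here, so these 4 levels are uncertain.

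**Figure D1:**
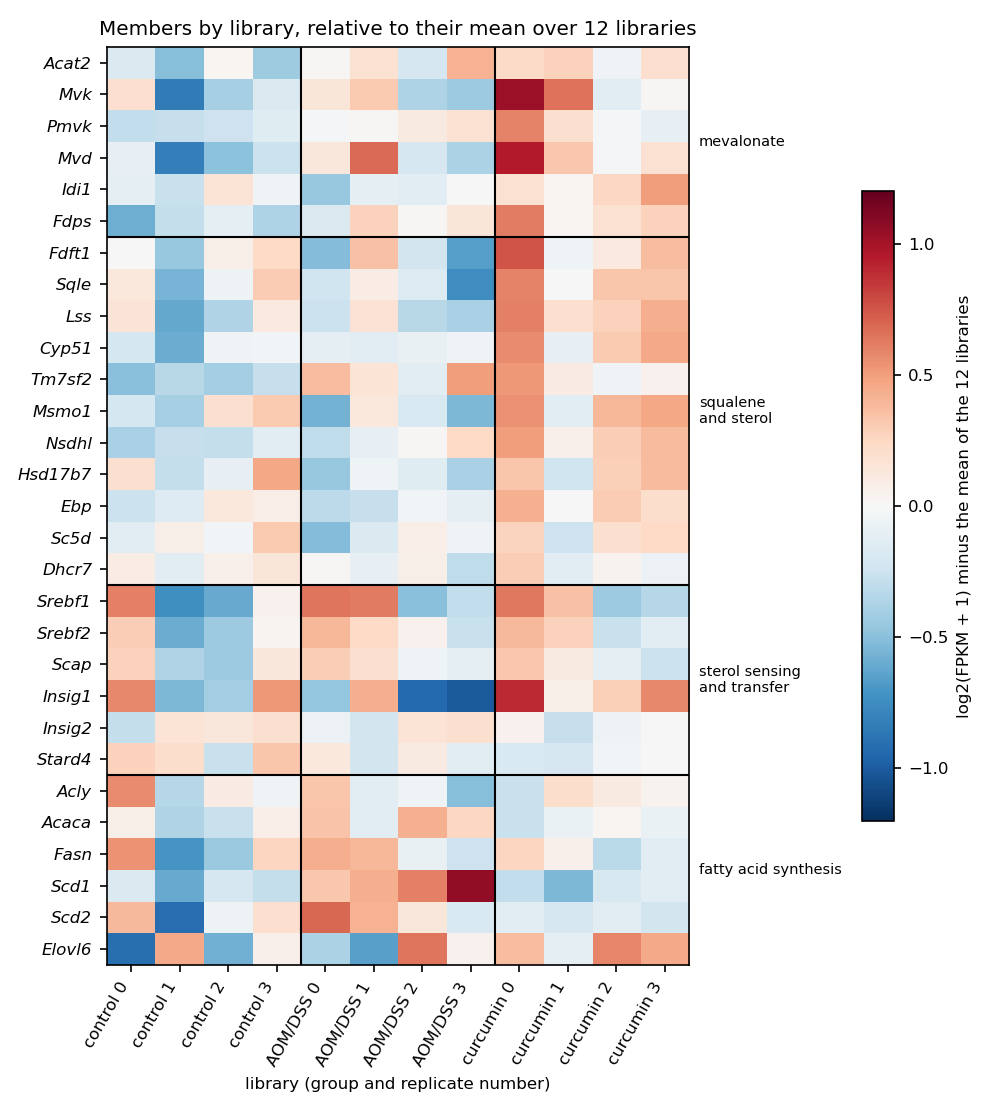
Colour gives log2(FPKM + 1) of each of the 29 tested members (rows, grouped by role) in each library (columns, by group and replicate number), minus that gene's mean over the 12 libraries. Curcumin replicate 0 is the darkest red column among the sterol enzymes, and Scd1 is red in the 4 AOM/DSS libraries alone.

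In AOM/DSS against control, Scd1 was the one member called, and it rose. Of the 29 tested members 16 were higher in mean, where 52.8% of all tested genes were. The median difference was 0.16, against 0.02 for all tested genes. The call rate was 1 of 29 members (3.45%) against 1.27% of tested genes in either direction. At an unadjusted p below 0.05, 6 members (20.7%) were higher, against 6.31% of tested genes: Acat2, Pmvk, Fdps, Tm7sf2, Acaca and Scd1. At that threshold 0 members were lower, against 7.15% of tested genes. All 4 AOM/DSS libraries lay above all 4 controls for 3 members (10.3%, against 2.38% of tested genes), namely Pmvk, Tm7sf2 and Scd1. No member lay wholly below, against 3.63% of tested genes.

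In curcumin against AOM/DSS, Scd1 was again the one member called, and it fell. Of the 17 tested enzymes of the mevalonate and sterol segments, 16 were higher in mean with curcumin, where 49.1% of all tested genes were. Their median difference was 0.40, while the median of all tested genes was -0.01. None of the 17 was called, but with libraries weighted by their quality Idi1, Msmo1 and Ebp were (adjusted p = 0.0477, 0.0357 and 0.0443), in a fit that called 3.88% of tested genes. Over all members the call rate was 1 of 29 against 1.08% of tested genes. At an unadjusted p below 0.05, 10 members (34.5%) were higher, against 7.59% of tested genes. Of the 10, 9 were sterol enzymes, with Insig1 as the other. At that threshold 2 members, Acaca and Scd1, were lower (6.9%, against 6.86% of tested genes). All curcumin libraries lay above all AOM/DSS libraries for 3 members, Idi1, Lss and Ebp (10.3%, against 4.95% of tested genes). They lay wholly below for 1 member, Scd1 (3.45%, against 4.27%).

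In curcumin against control, no member was called with limma, where 0.141% of tested genes were. Voom on recovered reads also called no member, in a fit that called 27 of the 12052 tested genes. With libraries weighted 3 members were called, Fdps, Cyp51 and Nsdhl, in a fit that called 4.07% of tested genes. In mean, 24 of 29 were higher, where 52.5% of all tested genes were, with a median difference of 0.30. The median of all tested genes was 0.01. At an unadjusted p below 0.05, 11 members (37.9%) were higher, against 5.87% of tested genes. All 11 were enzymes of the mevalonate and sterol segments. At that threshold 0 members were lower, against 6.31% of tested genes. All curcumin libraries lay above all controls for 6 members (20.7%, against 3.72% of tested genes): Pmvk, Mvd, Fdps, Lss, Tm7sf2 and Nsdhl. No member lay wholly below, against 4.55% of tested genes. The members were measured in the same libraries and are not independent of each other, and the comparisons share groups, the AOM/DSS libraries in the first pair and the curcumin libraries in the last pair.

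**Figure D2:**
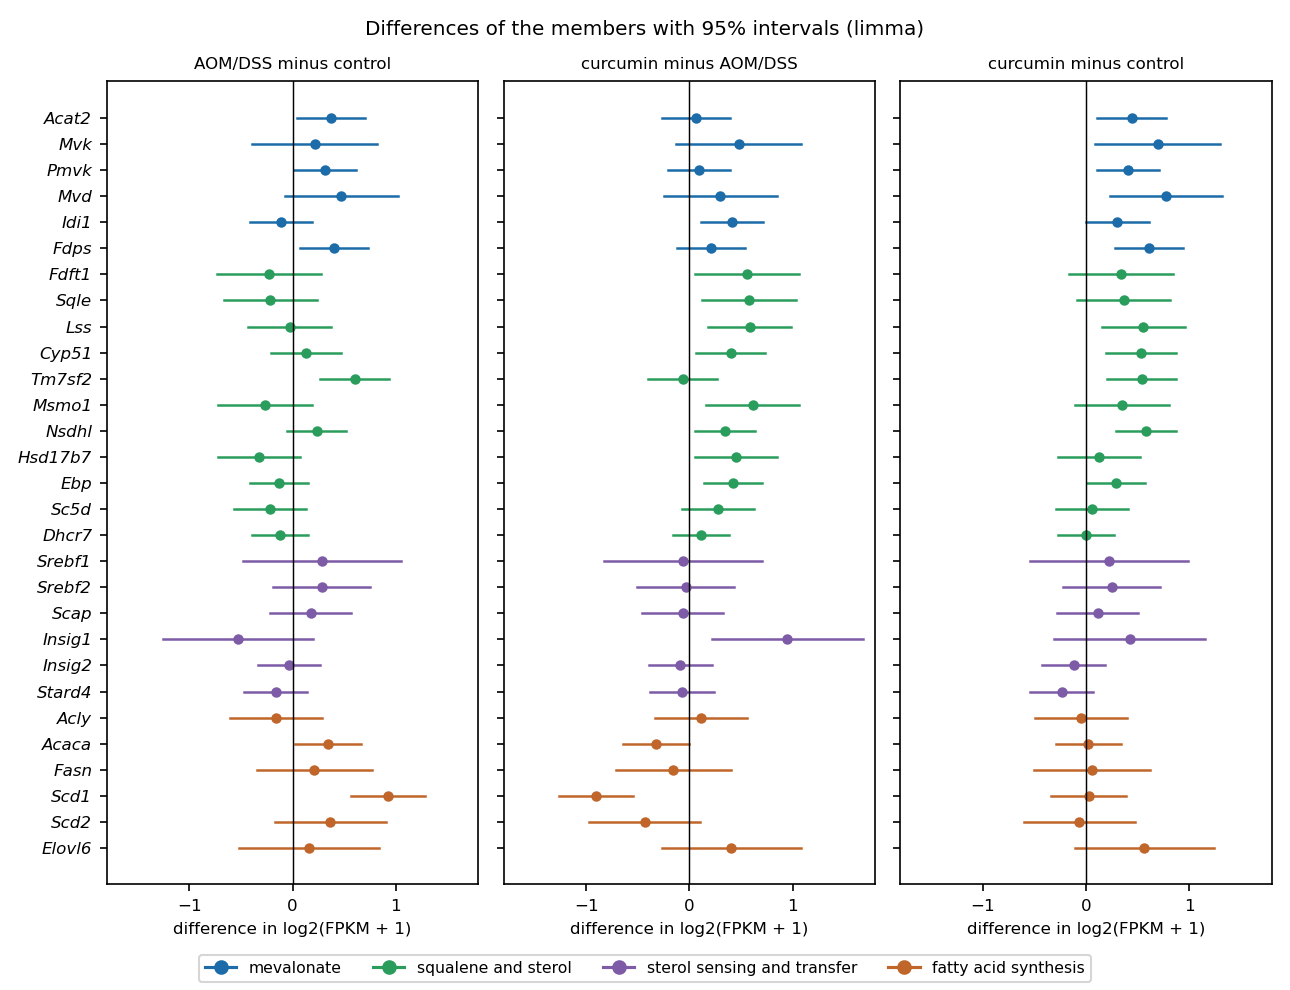
Points give the difference in log2(FPKM + 1) of each tested member in the 3 comparisons, with 95% intervals from limma (n = 4 libraries a group), coloured by role. Scd1 lies right of 0 in AOM/DSS minus control and left of 0 in curcumin minus AOM/DSS, and 16 of the 17 mevalonate and sterol enzymes lie right of 0 in curcumin minus AOM/DSS.

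Of the 6 tested mevalonate genes, all but Idi1 had their lowest group mean in control. The median difference was 0.34 in AOM/DSS against control, 0.25 in curcumin against AOM/DSS and 0.52 in curcumin against control, where all 6 were higher in mean and none was called. Pmvk, the phosphomevalonate kinase, was at 18.6, 18.8, 19.2 and 20.6 FPKM in control replicates 0 to 3, at 22.8, 23.3, 24.8 and 26.2 in AOM/DSS and at 35.2, 26.3, 22.6 and 21.3 in curcumin. Each control library lay below every library of the other groups, and the AOM/DSS and curcumin libraries overlapped. The difference from control was 0.32 in AOM/DSS (adjusted p = 0.340) and 0.40 in curcumin (adjusted p = 0.260).

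Mvd, the decarboxylase that yields isopentenyl diphosphate, was at 30.3, 18.0, 22.8 and 27.0 FPKM in control, 35.6, 52.4, 28.1 and 24.6 in AOM/DSS and 63.8, 40.7, 31.8 and 36.8 in curcumin. Curcumin lay above control without overlap (difference 0.77, adjusted p = 0.240), and AOM/DSS overlapped both. Fdps, which joins isoprenoid units into farnesyl diphosphate, was at 65.4, 80.5, 91.0 and 76.1 FPKM in control, 87.1, 119.8, 99.2 and 108.8 in AOM/DSS and 150.8, 99.98, 111.8 and 119.2 in curcumin. Again curcumin lay above control without overlap (0.61, adjusted p = 0.134). Its exons overlap those of Gm43738 over 26.7% of their length, so part of its reads may belong there.

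Mvk, the mevalonate kinase, had a mean of 15.5 ± 4.83 (SD, n = 4) FPKM in control, 18.0 ± 4.83 in AOM/DSS and 26.2 ± 10.3 in curcumin. The 5 GC-rich libraries, at 20.7 to 39.0 FPKM, all lay above the 7 others, of which none passed 18.8. With the GC trend of each library removed, curcumin minus control was 0.60 (adjusted p = 0.236), where it had been 0.69 (adjusted p = 0.351). With the GC slope of each library as a covariate it was 0.45 (adjusted p = 0.132). Acat2, the thiolase that opens the route, was at 14.7 to 21.7 FPKM in control, 18.4 to 28.8 in AOM/DSS and 20.7 to 26.0 in curcumin, so that all groups overlapped.

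Idi1, the isomerase that balances the isoprenoid diphosphates, was at its lowest mean in AOM/DSS. It was at 55.01, 49.2, 66.9 and 57.6 FPKM in control, 43.0, 54.9, 53.9 and 59.6 in AOM/DSS and 67.6, 60.6, 70.8 and 84.5 in curcumin. AOM/DSS and control overlapped, and every curcumin library lay above every AOM/DSS library. The difference of curcumin from AOM/DSS was 0.42 ± 0.14 (SE), with an adjusted p of 0.189.

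Of the 11 enzymes from squalene on, 8 were lower and 3 higher in mean in AOM/DSS against control, with a median difference of -0.13 and no call. With curcumin against AOM/DSS 10 of 11 were higher in mean, with a median of 0.42, and 8 had an unadjusted p below 0.05. Lss, which closes squalene epoxide into lanosterol, was at 11.0, 6.04, 7.35 and 10.7 FPKM in control, 7.97, 11.1, 7.51 and 7.18 in AOM/DSS and 15.3, 11.4, 12.02 and 13.5 in curcumin. The curcumin libraries lay above all 8 others. The difference was 0.58 ± 0.19 (SE) from AOM/DSS (adjusted p = 0.167) and 0.55 from control (adjusted p = 0.252).

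Ebp, the sterol isomerase that moves a double bond in the ring system, was at 58.8, 63.0, 77.0 and 74.5 FPKM in control, 56.5, 58.0, 68.9 and 65.3 in AOM/DSS and 95.4, 70.2, 87.4 and 81.7 in curcumin. Curcumin lay above AOM/DSS without overlap (0.42 ± 0.13 SE, adjusted p = 0.158), by a small gap of 68.9 to 70.2 FPKM. Msmo1, which oxidises the methyl groups of lanosterol products, was at 110.4, 97.1, 147.2 and 159.7 FPKM in control, 86.1, 139.9, 112.8 and 87.9 in AOM/DSS and 188.1, 117.1, 169.4 and 177.5 in curcumin. One AOM/DSS library, replicate 1, lay above one curcumin library, also replicate 1. The difference was 0.61 (adjusted p = 0.195).

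Squalene epoxidase, Sqle, an oxygen-requiring step of the route, had a mean of 64.4 ± 15.7 FPKM in control, 55.2 ± 12.8 in AOM/DSS and 82.0 ± 13.8 in curcumin, a difference of 0.58 between the last pair (adjusted p = 0.221). Squalene synthase, Fdft1, had means of 48.4 ± 9.44, 42.2 ± 14.5 and 61.7 ± 15.9 FPKM in the same order (0.56, adjusted p = 0.285). Cyp51, which removes a methyl group from lanosterol, had means of 35.8 ± 6.18, 38.8 ± 1.04 and 52.3 ± 9.96 FPKM (0.40, adjusted p = 0.254). In each of these 3 genes the curcumin and AOM/DSS libraries overlapped.

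Nsdhl and Hsd17b7 act together in removing methyl groups at the same carbon, as dehydrogenase and as ketoreductase. Nsdhl was at 18.1, 19.6, 19.5 and 21.99 FPKM in control, 19.3, 22.3, 24.3 and 28.5 in AOM/DSS and 34.4, 25.1, 29.7 and 31.6 in curcumin. Its curcumin libraries all lay above control (0.58 ± 0.13 SE), with the lowest adjusted p of the members in that comparison, 0.112. Hsd17b7 was at 9.24, 6.37, 7.35 and 11.4 FPKM in control, 5.53, 7.66, 7.11 and 5.83 in AOM/DSS and 10.3, 6.602, 9.94 and 10.7 in curcumin. AOM/DSS was the lowest group in mean, and its libraries overlapped those of both other groups (curcumin minus AOM/DSS 0.45, adjusted p = 0.276).

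Tm7sf2, a sterol reductase, was the exception among the 17 enzymes in curcumin against AOM/DSS, at -0.06 (95% interval -0.40 to 0.27). It was at 11.0, 12.5, 11.8 and 13.0 FPKM in control, 21.0, 18.0, 14.4 and 23.0 in AOM/DSS and 23.4, 17.2, 15.6 and 16.6 in curcumin. All 8 libraries with AOM/DSS lay above the 4 controls, by 0.60 in AOM/DSS (adjusted p = 0.0800) and 0.54 in curcumin (adjusted p = 0.187). The exons of Vps51 cover 12.1% of its exon bases. For Dhcr7, the reductase that makes cholesterol, the 95% interval of curcumin minus AOM/DSS was -0.16 to 0.38, and for the desaturase Sc5d it was -0.07 to 0.62.

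The stretch of 250 bases before the start site is shown for Idi1, Lss and Ebp, whose curcumin libraries all lay above AOM/DSS, and for Insig1, which had the largest difference between those groups. The sequences are from RefSeq on GRCm38.p6, 5′ to 3′ in the direction of the gene, with each CCAAT box in capitals (ATTGG where it lies on the opposite strand). The windows are chr13:8885356-8885605 (plus strand), chr10:76531355-76531604 (plus strand), chrX:8193513-8193762 (minus strand) and chr5:28071162-28071411 (plus strand).

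Idi1: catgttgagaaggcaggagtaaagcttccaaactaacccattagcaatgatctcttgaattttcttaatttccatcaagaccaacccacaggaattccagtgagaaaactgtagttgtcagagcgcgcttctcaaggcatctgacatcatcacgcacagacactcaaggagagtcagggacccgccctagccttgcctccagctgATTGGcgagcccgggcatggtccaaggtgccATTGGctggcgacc

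Lss: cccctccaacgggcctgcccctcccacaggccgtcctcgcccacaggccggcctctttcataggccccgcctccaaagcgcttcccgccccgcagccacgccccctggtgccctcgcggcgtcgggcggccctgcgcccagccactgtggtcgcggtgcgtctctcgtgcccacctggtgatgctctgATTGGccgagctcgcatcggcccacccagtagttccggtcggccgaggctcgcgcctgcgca

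Ebp: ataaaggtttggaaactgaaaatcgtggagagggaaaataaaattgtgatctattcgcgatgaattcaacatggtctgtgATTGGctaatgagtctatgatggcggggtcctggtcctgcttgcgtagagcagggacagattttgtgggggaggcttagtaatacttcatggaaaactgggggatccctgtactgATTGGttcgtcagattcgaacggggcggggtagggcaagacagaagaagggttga

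Insig1: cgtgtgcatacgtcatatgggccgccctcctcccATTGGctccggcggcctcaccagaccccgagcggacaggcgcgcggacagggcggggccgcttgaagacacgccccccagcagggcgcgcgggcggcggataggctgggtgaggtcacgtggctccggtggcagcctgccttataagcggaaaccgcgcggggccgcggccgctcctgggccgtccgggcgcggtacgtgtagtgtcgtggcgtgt

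The box CCAAT is the site of NF-Y, a factor known to act beside SREBP at sterol genes. Its first base lies at -45 and -14 from the start site in Idi1, at -62 in Lss, at -170 and -55 in Ebp and at -216 in Insig1. RefSeq windows were found for 24 members, 32 windows in all, and of these 20 (62.5%) hold CCAAT on either strand, against 33.8% of all 32851 windows of this length. The promoters shown were picked by their differences, but the box was in 19 of the 24 members. Among these Tm7sf2, Srebf1, Srebf2, Insig2 and Fasn were lower in mean with curcumin than in AOM/DSS, and the other tested ones higher. The part of the box in the differences was not tested. The Sp1 box GGGCGG was in 71.9% of member windows against 32.7% of all. The E-box CACGTG was in 5 of the 32 member windows (15.6%), against 6.02% of all windows. These belong to Hsd17b7, Sc5d, Dhcr7, Scap and Insig1, and in Insig1 the E-box starts at -101. The sterol regulatory element core TCACNCCAC was in 1 member window (3.12%), that of Hmgcs1 at -137, against 1.05% of all windows. These are matches of letters on either strand, each motif counted by itself, so that matches of different motifs may overlap. The members without a window were Fdft1, Scd2, Scd1, Stard4, Sqle and Fdps.

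**Figure D3:**
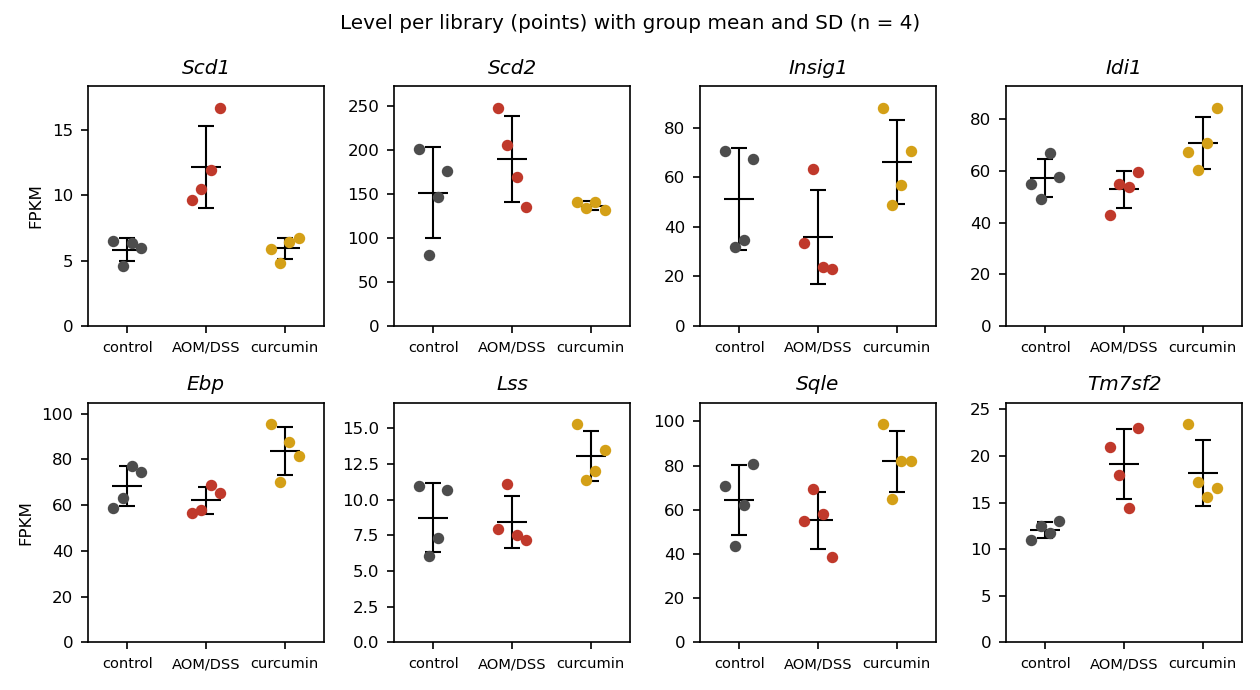
FPKM of 8 members per library (points, from replicate 0 at the left to 3 at the right of each group), with the group mean and SD (bars, n = 4). The 4 AOM/DSS points of Scd1 lie above all others, and in Idi1, Ebp and Lss the curcumin points lie above those of AOM/DSS.

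Among the 6 genes of sterol sensing and transfer no call was made. Insig1, which retains Scap in the endoplasmic reticulum and is itself switched on by SREBP, was at 70.4, 31.8, 34.7 and 67.4 FPKM in control, 33.6, 63.5, 24.0 and 22.8 in AOM/DSS and 88.0, 49.0, 57.0 and 70.4 in curcumin. AOM/DSS replicate 1 lay within the curcumin range and the other 3 below it. The difference of curcumin from AOM/DSS was 0.95 ± 0.34 (SE), the largest of any member in that comparison, with an adjusted p of 0.212 and a 95% interval from 0.22 to 1.68. Its paralog Insig2 had means of 16.96 ± 2.62, 16.5 ± 2.33 and 15.4 ± 1.58 FPKM in control, AOM/DSS and curcumin, and the interval of curcumin minus AOM/DSS was -0.39 to 0.22.

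The regulators themselves overlapped between all groups. Srebf2 had means of 45.2 ± 13.2, 54.3 ± 10.5 and 53.0 ± 11.7 FPKM in control, AOM/DSS and curcumin, and Srebf1 had 20.03 ± 9.38, 24.5 ± 10.1 and 23.0 ± 8.65. Curcumin minus AOM/DSS was -0.04 (95% interval -0.51 to 0.43) for Srebf2 and -0.07 (-0.83 to 0.70) for Srebf1. Both were divided by the GC group of the library: Srebf1 was at 27.1 to 33.4 FPKM in the 5 GC-rich libraries and 12.2 to 21.9 in the other 7, and Srebf2 was at 58.8 to 65.7 and 32.4 to 51.4. With Mvk, 3 members had this division, against 4.74% of tested genes, and their own GC content was 56.3% to 58.4%, where the median tested gene had 49.8%. Scap, the escort of SREBP, had means of 18.4 ± 4.72, 20.6 ± 2.94 and 19.7 ± 3.73 FPKM. Stard4, which carries cholesterol between membranes, had 54.3 ± 9.61, 47.9 ± 5.81 and 45.4 ± 3.395 FPKM.

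The 6 fatty acid genes had a median difference of 0.28 in AOM/DSS against control and -0.24 in curcumin against AOM/DSS. Scd1 was at 6.51, 4.56, 6.38 and 5.92 FPKM in control replicates 0 to 3, at 9.61, 10.5, 11.9 and 16.7 in AOM/DSS and at 5.88, 4.83, 6.38 and 6.69 in curcumin, from 112 to 1205 reads a library. Every AOM/DSS library lay above all 8 others, and the control and curcumin libraries overlapped. Scd1 rose in AOM/DSS against control by 0.93 ± 0.17 (SE), from a mean of 5.84 ± 0.891 to 12.2 ± 3.16 FPKM, which is 2.08 times the control mean (adjusted p = 0.0176). It fell with curcumin against AOM/DSS by 0.90 ± 0.17, to 5.94 ± 0.818 FPKM (adjusted p = 0.0204). Between curcumin and control the difference was 0.02, with a 95% interval of -0.34 to 0.38, and its sign changed when every library was rescaled to a common sum. The call of the fall was lost when any one of curcumin replicates 0, 1 or 2 was left out (adjusted p = 0.0622, 0.0700 and 0.0571), and that of the rise when control replicate 3 was left out (0.0615). A fit of only the groups compared lost both calls (0.0688 for the rise and 0.0540 for the fall).

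Genes that follow the time of day also differed in both comparisons in which Scd1 was called, and their sum went the opposite way to Scd1. The summed level of 12 such clock genes was 262 to 371 FPKM in control, 119 to 169 in AOM/DSS and 220 to 293 in curcumin, with AOM/DSS below both other groups. Of the 11 tested, 5 were called lower in AOM/DSS against control, where 1.27% of all tested genes were called, and in mean 8 were lower and 3 higher. With curcumin against AOM/DSS 4 were called higher and 1, Npas2, lower, against 1.08% of tested genes, and in mean 8 were higher and 3 lower. The epithelial gene Slc26a3, described above, was likewise lower in every AOM/DSS library than in any other, and its part in the Scd1 difference was not tested. The time of sampling is not given in the sources used here, and the part of clock phase in the Scd1 difference was not tested.

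Adipocytes and sebaceous cells are known to express Scd1. Of 8 adipocyte markers, Plin1, Lep and Retn were at 0 in every library, and the list summed to 2.69 to 11.7 FPKM in control, 2.94 to 12.1 in AOM/DSS and 4.44 to 7.90 in curcumin. Its tested genes were Cidec, a lipid droplet protein, with means of 1.45, 2.46 and 5.23 FPKM in control, AOM/DSS and curcumin, and Fabp4, a fatty acid carrier, with 4.57, 3.92 and 0.682. Of 8 sebaceous gland and skin markers, Mc5r and Awat1 were at 0 in every library, and the list summed to 3.499 to 5.05 FPKM in control, 2.65 to 12.7 in AOM/DSS and 2.80 to 4.58 in curcumin. Its keratin gene Krt14 was at 1.23, 6.87, 1.37 and 11.1 FPKM in AOM/DSS replicates 0 to 3, at 0.703 to 1.41 in control and at 0.555 to 0.965 in curcumin. The highest value of Krt14 came from AOM/DSS replicate 3, as did that of Scd1. The same library was also highest for markers of other cell types, such as Col3a1 of fibroblasts, Jchain of plasma cells and C1qa of macrophages. In AOM/DSS replicates 0 and 2 Krt14 lay within the control range, where Scd1 was at 9.61 and 11.9 FPKM. The other tested gene of the skin list, the keratin Krt10, had means of 2.199 FPKM in control, 1.68 in AOM/DSS and 2.80 in curcumin. None of the tested marker genes named here was called, and their part in the Scd1 difference was not tested.

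Scd2, the abundant paralog, was at 200.8, 81.0, 146.8 and 176.2 FPKM in control, 247.6, 205.8, 169.1 and 135.2 in AOM/DSS and 140.8, 133.6, 140.4 and 131.5 in curcumin. All groups overlapped, and the curcumin libraries were the closest together. The difference was 0.36 in AOM/DSS against control (adjusted p = 0.573) and -0.43 in curcumin against AOM/DSS (adjusted p = 0.460, 95% interval -0.97 to 0.10). Scd1 made up 3.97% ± 1.02 (SD, n = 4) of the summed FPKM of both desaturases in control, 6.54% ± 3.19 in AOM/DSS and 4.17% ± 0.571 in curcumin. The AOM/DSS share ran from 3.74% to 11.0%, and AOM/DSS replicate 3 held both the highest Scd1 and the lowest Scd2 of its group.

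The other 4 fatty acid genes overlapped between all groups. Acaca, acetyl-CoA carboxylase, the committed step, had means of 7.84 ± 1.37, 10.3 ± 1.79 and 7.92 ± 0.736 FPKM in control, AOM/DSS and curcumin. Its differences of 0.34 and -0.32 had unadjusted p of 0.0361 and 0.0474 and adjusted p of 0.323 and 0.339. Fasn, fatty acid synthase, had 24.8 ± 10.2, 27.7 ± 6.69 and 24.6 ± 4.35 FPKM, and Acly had 101.9 ± 28.1, 90.7 ± 21.9 and 96.7 ± 13.2. Elovl6, which elongates the product of Fasn, was at 8.35, 23.1, 10.8 and 17.3 FPKM in control, 12.5, 10.2, 26.3 and 17.1 in AOM/DSS and 21.7, 15.1, 25.3 and 23.0 in curcumin. Control and AOM/DSS each ranged over more than the curcumin libraries did, and curcumin minus control was 0.56 (adjusted p = 0.495).

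**Figure D4:**
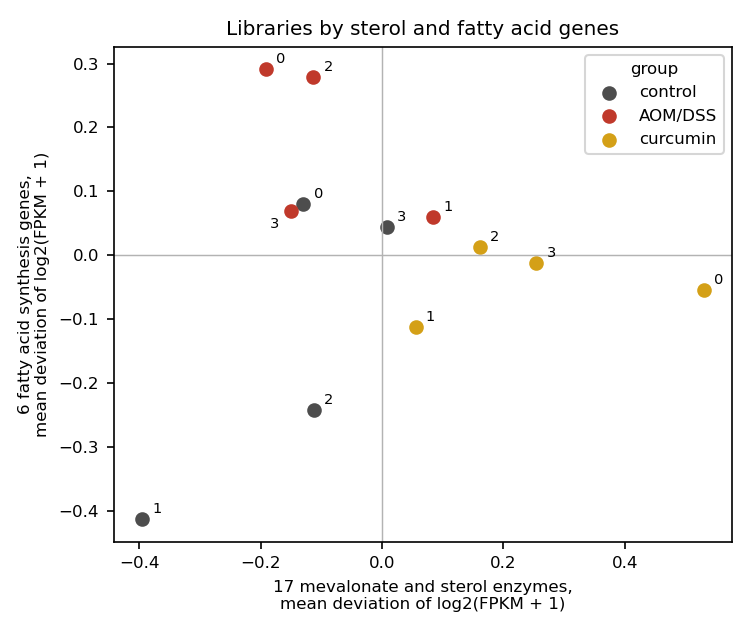
Each point is a library, numbered by replicate. The horizontal axis gives the mean over the 17 mevalonate and sterol enzymes, and the vertical axis that over the 6 fatty acid genes, of log2(FPKM + 1) minus the gene's mean over all 12 libraries. The curcumin libraries lie to the right of all controls, from 0.06 to 0.53, and AOM/DSS replicate 1 at 0.08 lies right of curcumin replicate 1.

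Libraries of a group differed in their mean over the sterol enzymes. The mean deviation of the 17 enzymes was 0.53, 0.06, 0.16 and 0.25 in curcumin replicates 0 to 3, -0.19, 0.08, -0.11 and -0.15 in AOM/DSS and -0.13, -0.40, -0.11 and 0.01 in control. The segments could differ within a library: the mean deviation of the mevalonate genes was -0.24 in control replicate 3 and 0.25 in curcumin replicate 1, where that of the enzymes from squalene on was 0.14 and -0.05. Curcumin replicate 0 was the highest library for 13 of the 17 enzymes and also had the highest sum of FPKM over all genes. Without it 15 of 17 were higher in mean in curcumin against AOM/DSS, with a median of 0.28. Then 4 instead of 9 had an unadjusted p below 0.05. That count was 5 without curcumin replicate 3 and 6 without AOM/DSS replicate 0 or 3. Leaving out any other single library gave 9 or 10. With every library rescaled to a common sum it was 5, with 16 of 17 higher. Control replicate 1, the library with the fewest reads, and AOM/DSS replicate 0 were each lowest for 5 of the 17 enzymes. Among the 4 GC-rich libraries of curcumin and AOM/DSS the median difference was 0.37 with 17 of 17 higher, and among the 4 AT-rich ones it was 0.34 with 14 of 17 higher. With the GC trend of each library removed it was 0.41 with 16 of 17 higher. Over 25 alternatives, between 14 and 17 enzymes were higher, and the median lay between 0.28 and 0.43.

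Other cell types held in the scrapings also differed between libraries. B and plasma cell markers summed to 10.2 to 35.9 FPKM in control, 15.9 to 102.7 in AOM/DSS and 3.21 to 23.8 in curcumin. Macrophage and dendritic cell markers summed to 7.79 to 46.9, 16.5 to 56.8 and 4.19 to 29.5 FPKM in the same order, and those of proliferating cells to 76.0 to 205.6, 101.6 to 205.4 and 96.4 to 132.9. Fibroblast markers summed to 0.707 to 12.4, 2.47 to 22.5 and 0.344 to 4.46 FPKM, and neutrophil markers to at most 2.08, 11.2 and 0.476, with Elane at 0 in every library. Red blood cell markers summed to 58.8 to 326.3 FPKM in control, 17.5 to 325.5 in AOM/DSS and 25.9 to 37.1 in curcumin, so that every curcumin library lay below every control. None of these lists had a called gene. Their part in the members' differences was not tested.

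A further 71 genes of sterol and fatty acid handling were listed, and 65 were tested. One was called, in curcumin against control: Mylip, the ubiquitin ligase that marks lipoprotein receptors for degradation, fell by 0.67 ± 0.11 (SE), from 13.1 ± 1.58 to 7.86 ± 0.147 FPKM (adjusted p = 0.0441). Mylip was at 15.4, 12.9, 11.7 and 12.4 FPKM in control, 10.9, 8.27, 9.21 and 8.85 in AOM/DSS and 7.77, 7.89, 7.73 and 8.06 in curcumin. The 3 groups were stepped without overlap, and the call was lost on leaving out control replicate 0, 1 or 3, AOM/DSS replicate 2 or 3, or any one curcumin library (adjusted p up to 0.166). At an unadjusted p below 0.05, 6 of the 65 were higher and 7 lower in AOM/DSS against control, where 6.31% and 7.15% of all tested genes were. In curcumin against AOM/DSS 8 were higher and 1 lower, against 7.59% and 6.86%, and in curcumin against control 12 were higher and 3 lower, against 5.87% and 6.31%. The median differences of the 65 were 0.03, 0.04 and 0.05.

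By group, the largest differences outside the members were these. Tmem97, a sterol-regulated membrane protein, was at 31.9 ± 8.43 FPKM in control, 46.8 ± 9.49 in AOM/DSS and 51.3 ± 5.23 in curcumin (0.55 and 0.70 from control, adjusted p = 0.209 and 0.160). Me1, malic enzyme, which supplies NADPH for fatty acid synthesis, was at 0.163, 1.32, 0.201 and 0.585 FPKM in control, 1.71, 1.64, 2.27 and 6.53 in AOM/DSS and 3.41, 2.55, 5.79 and 2.46 in curcumin. All 8 libraries with AOM/DSS lay above control, by 1.28 in AOM/DSS (adjusted p = 0.0939) and 1.54 in curcumin (adjusted p = 0.101). Me1 in AOM/DSS was called with voom on recovered reads (2.87, adjusted p = 0.0484) and with the GC slope as a covariate (1.44, adjusted p = 0.0438). In curcumin it was called with libraries weighted (1.67, adjusted p = 0.0207) and without AOM/DSS replicate 3 (adjusted p = 0.0490). Abcg1, a sterol exporter, was 0.68 lower in AOM/DSS than in control (adjusted p = 0.2504), and Mogat2, which makes diacylglycerol from monoacylglycerol, was 0.90 higher (adjusted p = 0.131).

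In curcumin against AOM/DSS, Nr1h3, which encodes the sterol-sensing receptor LXR alpha, was at 14.01, 16.2, 11.2 and 10.4 FPKM in AOM/DSS and 19.9, 20.3, 18.4 and 17.7 in curcumin, with 18.5, 16.6, 19.5 and 20.4 in control. AOM/DSS lay below both other groups without overlap, and curcumin minus AOM/DSS was 0.54 ± 0.13 (SE, adjusted p = 0.0749). It was called with libraries weighted, with either GC correction and without AOM/DSS replicate 1 (adjusted p between 0.0215 and 0.0282). Dgat1, which makes triacylglycerol, was at 23.7 ± 4.21 FPKM in AOM/DSS and 37.1 ± 7.20 in curcumin without overlap (0.63, adjusted p = 0.107), and at 27.5 ± 4.75 in control. Fads1, a fatty acid desaturase, was 0.60 lower with curcumin (adjusted p = 0.428), and Mbtps1, which makes the first cut of SREBP, 0.25 lower (adjusted p = 0.402). In the isoprenoid branch the largest were Pdss1, an enzyme of the ubiquinone side chain, 0.29 higher than AOM/DSS and 0.39 higher than control (adjusted p = 0.369 and 0.301), and Pggt1b, 0.17 lower in AOM/DSS than control (adjusted p = 0.716). Lpin2, a phosphatidate phosphatase, was 0.93 higher in curcumin than control (adjusted p = 0.193). With libraries weighted, Dgat1 was called against AOM/DSS and Tmem97, Pdss1 and Lpin2 against control (adjusted p between 0.0136 and 0.0404). The weighted fits called 3.88% of all tested genes against AOM/DSS and 4.07% against control.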

How the data were processed

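Messenger RNA was read from 12 deposited tables, 1 per library, with gene symbols and FPKM values that the authors computed, per the file names. The build was mm9 and the tools were featureCounts 1.5.1, TopHat2 2.1.1, Bowtie2 2.2.6, DESeq2 1.14.1, Picard and R 3.4.0, per the submitters' processing notes, which give no order. Annotation and strand setting are not given in the sources used here. FPKM were whole multiples of a step per gene and library (tolerance 0.001) for all 19233 genes above 0 (100%), which gave the reads per library. A further 5158 symbols were at 0 in every library. The number of reads limits the precision of low genes.

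Groups were taken from the sample titles. The R package limma 3.58.1 (R 4.3.3) fitted log2(FPKM + 1) with 1 mean per group over all 12 libraries and an intensity trend, after a filter of 1 FPKM in at least 4 libraries that left 12052 genes. Adjustment was by Benjamini-Hochberg over all of them, with a threshold of 0.05. The test was checked on simulated reads with 1 setting of the spread for all genes and no GC trend between libraries. That check does not cover the GC differences between these libraries. Alternatives changed the pseudocount, the filter, the scaling, the intensity trend, library weights, the groups fitted, a GC correction over 20 bins or as a covariate, a block for the replicate number, voom on recovered reads, and left out each library. Fits within GC-rich and within AT-rich libraries were added after seeing the data. GC content came from a GENCODE annotation of GRCm38, a later build than mm9, for 11969 tested genes (99.3%), 362 through an older symbol, and no mm9 coordinate is printed.

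The members and the gene lists were chosen with earlier results of these data known. The rule for naming asked for values per library of members called and the 2 of each role with the largest difference in a comparison. Of these, Mvk, Srebf1, Srebf2 and Insig2 are given by group mean and SD instead. Of the other pathway genes, the rule names those called and the largest of each list. Values of Pmvk and Ebp, and per library those of Nr1h3 and Me1, were given because their groups did not overlap, after their values were seen.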

Additional observations from a re-analysis of the deposited data

Results flagged for a closer look

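In 87 sets of 4 libraries (29 members in 3 groups), 2 had a library set apart from the other 3 by more than Dixon's critical share of their whole range (gaps of 0.844 and 0.863 of the range). Chance alone sets apart about 1 in 20 such groups. Sc5d, the sterol desaturase, was at 43.2 FPKM in curcumin replicate 1, where the other curcumin libraries were at 59.3, 60.9 and 62.2. Insig2 was at 13.1 FPKM in control replicate 0, where the other controls were at 17.9, 18.3 and 18.6. Neither gene was called in any comparison.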

How the results depend on the processing

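The median difference of the members kept its sign under all 27 alternatives in each comparison, from 0.01 to 0.25 in AOM/DSS against control, 0.10 to 0.29 in curcumin against AOM/DSS and 0.17 to 0.37 in curcumin against control. Scd1 was called in 23 of 25 alternatives for the rise and in 21 of 25 for the fall, leaving aside the fits by GC group. A fit of only the 2 groups compared left 0 members called in each. In fits of the GC-rich libraries alone or of the AT-rich ones alone, 0 members were called, with Scd1 at 0.56 and 1.2 for the rise and -0.80 and -1.003 for the fall, from fewer libraries. Weighting libraries called 4 members in curcumin against AOM/DSS (Idi1, Msmo1 and Ebp higher, Scd1 lower) and 3 in curcumin against control (Fdps, Cyp51 and Nsdhl higher). The cause was not tested. Leaving out 1 library gave 0 to 2 members in AOM/DSS against control (Tm7sf2 joined without AOM/DSS replicate 2) and 0 to 1 in curcumin against AOM/DSS. Scd1 in curcumin against control had no call and turned to -0.0127 after rescaling to a common sum and -0.25 in the GC-rich libraries, and ranged from -0.0732 to 0.105 when 1 library was left out. Pggt1b in AOM/DSS against control turned to 0.0186 in the AT-rich libraries.

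Genes called in AOM/DSS against control (153) became 288 with library weights, 54 with only the 2 groups, 267 with the GC slope as a covariate, 7 in the GC-rich and 4 in the AT-rich libraries, and 53 to 201 when 1 library was left out. In curcumin against AOM/DSS (130) they became 468 with library weights, 85 with only the 2 groups, 232 with the GC trend removed, 305 with the GC slope, 8 and 1 within the GC-rich and AT-rich libraries, and 48 to 149 on leaving out 1. In curcumin against control (17, of which 11 higher and 6 lower) they became 11 with a pseudocount of 0.1, 7 without the filter, 491 with weights, 27 with voom on recovered reads, 30 with the GC trend removed (13 higher and 17 lower), 34 with the GC slope (19 and 15), 0 and 0 within the GC-rich and AT-rich libraries, and 4 to 35 on leaving out 1. Common-sum scaling gave 7 higher and 6 lower there, and quantile scaling 12 and 11. Voom on recovered reads called 170 and 144 genes in the first pair. Mylip was called in 10 of its 27 alternatives.

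The titles do not say whether the replicate numbers pair the libraries, and correlations cannot settle it. Over 12 same-number pairs the correlation of deviations ran from -0.333 to 0.456, and 6 were over 0.1. Of 12 libraries 4 correlated best with their own number. The GC division followed the number in part. In every group replicate 0 was GC-rich and replicates 2 and 3 were AT-rich, while replicate 1 was AT-rich in control and GC-rich in the other groups. With the number as a block, 82, 86 and 2 genes were called in the 3 comparisons and the members called were as before, with adjusted p of 0.0192 and 0.0280 for Scd1. With 4 libraries a group, the standard errors of the 17 sterol enzymes ran from 0.13 to 0.28, and low members rest on few reads, Scd1 on as few as 112.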
